A study of Equus caballus with 24 samples.

Results

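The genes described here are CD79A, CD79B, MS4A1, PAX5, EBF1, RAG1, RAG2, CD22 and BLNK, which serve the development of B cells in bone marrow. They were taken by their symbol from the gene tables of a study of body size in horses, and all 9 were found among its 24232 genes with counted reads. RNA was sequenced from the small Debao pony (DP) and the larger Mongolian horse (MH), all females, in 24 libraries from 8 groups of 3. The groups are the epiphysis (the end) of a long bone of juvenile DPs (DPLBJ), adult DPs (DPLBA), juvenile MHs (MHLBJ) and adult MHs (MHLBA), and the pituitary of the same 4 kinds of animal (DPPJ, DPPA, MHPJ and MHPA). The labels give no treatment, and breed cannot be told apart from whatever else differed between the DPs and MHs that were sampled. Libraries are numbered within a group, so that DPLBJ2 is replicate 2 of DPLBJ. By the paper's methods both tissues came from the same animals, but the labels do not give which libraries share an animal.

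B cells are made in the marrow from progenitors that switch on the transcription factors EBF1 and PAX5, cut and join their antibody genes with the RAG1 and RAG2 recombinase, and place the antibody on the surface together with the signalling chains CD79A and CD79B. BLNK is the adaptor that passes the receptor's signal on inside the cell, CD22 dampens that signal, and MS4A1 encodes CD20, a surface protein that appears late in the pathway and stays on mature B cells. Some of the genes are shared with other cells: the recombinase also works in T cell precursors, and EBF1 is used by fat and stromal cells. In pieces of whole tissue, fewer cells of a type and less RNA per cell cannot be told apart.

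Between 11616518 and 27007342 reads per long bone library and between 11433209 and 23573036 per pituitary library fell on genes. The labelled tissues were checked against markers. The 7 genes of osteoblasts, the bone-forming cells, summed to 2500 to 23007 RPKM (reads scaled to gene length and library depth) in the long bone and to 31.0 to 1349 RPKM in the libraries labelled pituitary. The 5 pituitary hormone genes summed to 14501 to 42464 RPKM in 7 of the 12 libraries labelled pituitary, but to only 0.12 to 20.7 RPKM in the other 5, which were DPPA1, MHPA1 and all 3 of MHPJ. Results that rest on those 5 libraries are given with and without them, except between the stages of the MH pituitary and between the breeds of the juvenile pituitary, where no MHPJ library would be left. In the long bone, DPLBJ1 had a summed RPKM of 2.89 for 4 neutrophil genes, against 262 to 1963 in the other 5 DP libraries. MHLBA1 also stood apart from its group. Its 6 fat cell genes summed to 717 RPKM, against 6997 in MHLBA2 and 8947 in MHLBA3. Its 7 cartilage genes summed to 188 RPKM, against 3.46 in MHLBA2 and 5.21 in MHLBA3.

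CD79A was higher in the long bone of DPs than of MHs. It had 0, 66 and 38 reads in DPLBJ1 to DPLBJ3 and 35, 23 and 19 reads in DPLBA1 to DPLBA3. It had 1, 9 and 5 reads in MHLBJ1 to MHLBJ3 and 2, 3 and 0 reads in MHLBA1 to MHLBA3. The adult groups did not overlap, and among juveniles DPLBJ1 lay with the MHs while the other DP libraries lay above them. The 0 reads of DPLBJ1 allow up to 3 reads, or 0.247 CPM (a read count scaled to the library's depth). The mean was 1.47 ± 0.61 CPM in DPLBA and 0.0947 ± 0.087 CPM in MHLBA (SD, n = 3). Pooled over libraries, the 77 reads of DPLBA against the 5 of MHLBA gave a ratio of 14.9, with a 95% exact interval of 6.13 to 47.3 that covers counting error only.

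CD79B, the partner chain of CD79A, was also higher in DPs. It had 7, 102 and 40 reads in DPLBJ1 to DPLBJ3, and 4, 7 and 15 in MHLBJ1 to MHLBJ3. In adults it had 18, 30 and 22 reads in DPLBA1 to DPLBA3 and 4, 7 and 6 in MHLBA1 to MHLBA3. Adult DPs were above all adult MHs, whereas DPLBJ1 fell within the juvenile MH range on the CPM scale. The adult means were 1.30 ± 0.21 CPM in DPLBA and 0.351 ± 0.093 CPM in MHLBA (SD, n = 3).

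**Figure D1:**
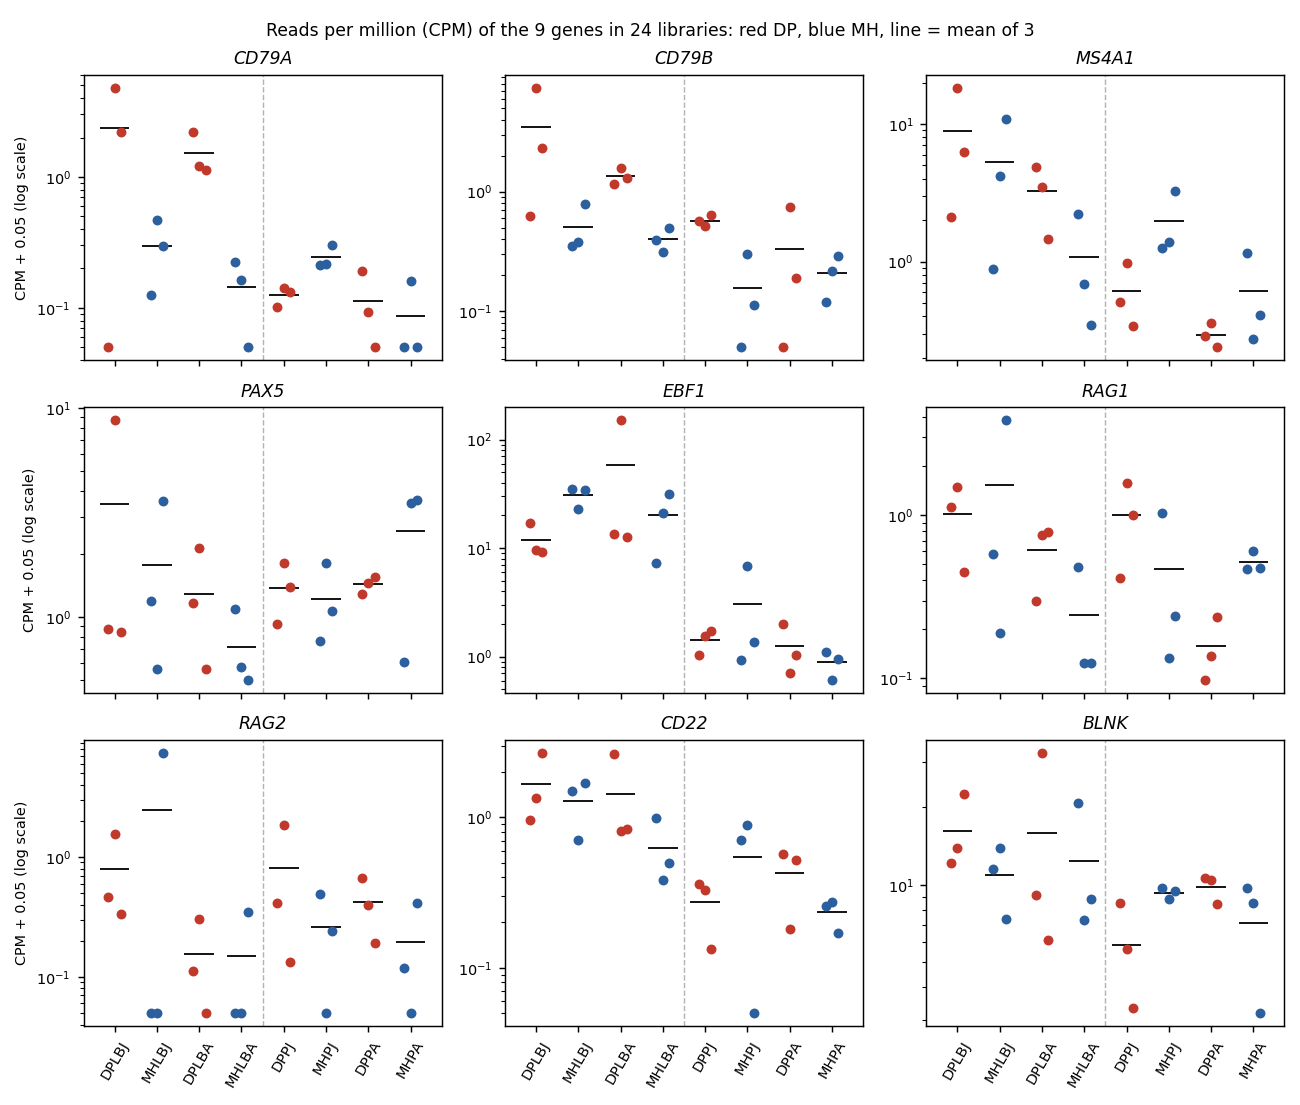
CPM + 0.05 on a log axis for each of the 9 genes in the 8 groups, with 1 point per library and a line at the mean of 3; DPs are red and MHs blue, and the dashed line parts long bone (left) from pituitary (right). In the long bone, CD79A and CD79B of adult DPs lie above all adult MHs, EBF1 of juvenile DPs lies below all juvenile MHs, and DPLBA2 stands alone for EBF1 at 150.4 CPM.

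Differentially expressed genes (DEGs) were called with edgeR at the threshold of the study, which asks for P under 0.05 before adjustment and more than 2-fold change, and p-values adjusted over all tested genes are given beside them. These p-values measure the spread between the libraries of a group, and an exact permutation test of 3 against 3 libraries could not go below 0.1. In the adult long bone, 7 of the 9 genes passed the filter on low counts and 2 of them were DEGs, both higher in DPs, against 18.3% of all tested genes that were DEGs and 10.3% that were higher DEGs. CD79A rose by a log2 fold change of 3.80 ± 0.88 (SE; edgeR, adjusted p = 0.0671) and CD79B by 1.82 ± 0.57 (adjusted p = 0.115), so neither passed after adjustment. CD79A passed with DESeq2 (adjusted p = 0.01) and with limma on log2(RPKM + 1) and log2(RPKM + 0.1) (adjusted p = 0.0363 and 0.0265). Of 14073 tested genes 1835, 427 and 373 passed in these 3 fits, in the same order. CD79A reached the filter only through the DP libraries, and RAG1 and RAG2 did not reach it. CD79B also needed the DP libraries to reach it, with 4 to 7 reads per MHLBA library. CD79A and CD79B were also the 2 genes of the 9 whose adult libraries did not overlap between breeds, against 29.6% of all tested genes. CD79A was a DEG whichever adult library was left out, and CD79B was lost only without MHLBA2 (log2 fold change 1.62).

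In the juvenile long bone, 2 of 7 tested genes were DEGs, against 13.8% of all tested genes. CD79B was higher in DPs, by 2.91 ± 0.98 on the log2 scale (SE; edgeR, adjusted p = 0.212), and EBF1 was lower, with -1.37 ± 0.36 (adjusted p = 0.153). With DESeq2 both passed after adjustment, as did 1289 of 13755 tested genes. Without DPLBJ1, the juvenile DP library that lay with the MHs for CD79A, edgeR passed CD79A, CD79B and EBF1 after adjustment. In that fit 1357 of 14397 tested genes passed, against 0 with DPLBJ1 in. CD79A was tested there only through DPLBJ2 and DPLBJ3. The CD79B call was lost without DPLBJ2 (1.62), without MHLBJ1 (2.71) and without MHLBJ2 (2.67). CD79A was not tested, because only 2 juvenile libraries had enough reads. CD79B reached the filter only with the help of DPLBJ2 and DPLBJ3. Without the filter all 9 genes were tested and 3 were DEGs, against 12% of all genes tested in that way. The third was CD79A, at 3.16 ± 1.32 on the log2 scale (edgeR, adjusted p = 0.31). EBF1 was the single gene of the 9 with no overlap between juvenile DPs and MHs, against 21.9% of all tested genes.

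Over both stages together, with 6 DP and 6 MH libraries and stage as a covariate, CD79A and CD79B were the DEGs among 8 tested genes and both were higher in DPs. Of all tested genes 18.6% were DEGs and 11.1% were higher DEGs. The log2 fold change was 3.43 ± 0.90 for CD79A (SE; edgeR, adjusted p = 0.0243) and 2.37 ± 0.59 for CD79B (adjusted p = 0.0206). Both thus passed after adjustment, as did 16.9% of all tested genes. As in adults, CD79A reached the filter through the DP libraries alone, since no MH library had more than 9 reads of it. CD79B needed the DP libraries as well, with 4 to 15 reads per MH library. CD79A no longer passed after adjustment without DPLBJ2, MHLBA3, MHLBJ1 or MHLBJ3 (edgeR, adjusted p = 0.0535, 0.0512, 0.0541 and 0.0583), and CD79B no longer did with the replicate block (adjusted p = 0.055). With limma CD79A alone passed on log2(RPKM + 1) and CD79B alone on log2(RPKM + 0.1). Both remained DEGs when any 1 of the 12 libraries was left out, with a log2 fold change of 2.95 to 3.77 for CD79A and 1.73 to 2.57 for CD79B.

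**Figure D2:**
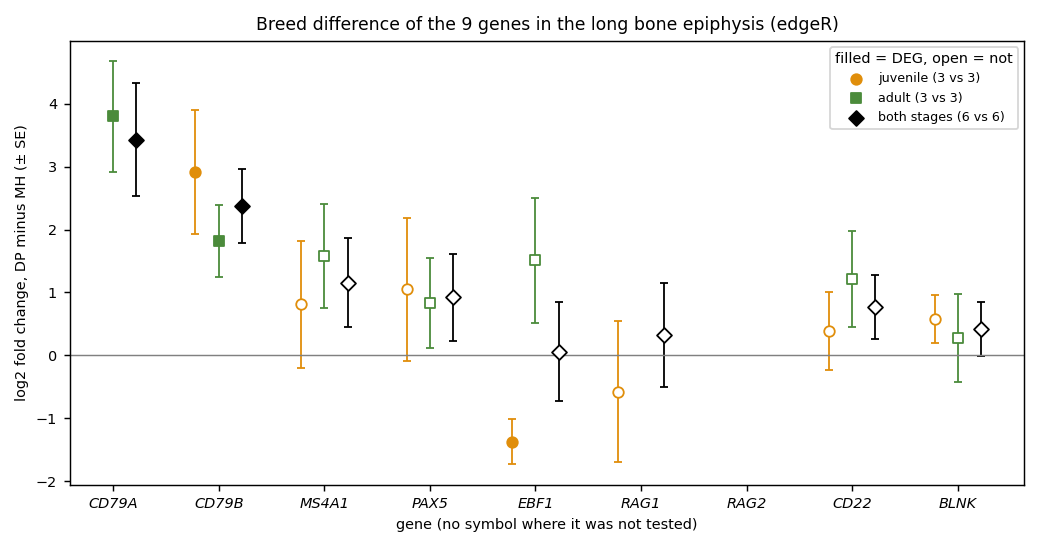
Log2 fold change between DPs and MHs in the long bone (vertical axis, with SE bars) for each of the 9 genes, in juveniles, in adults and in both stages together; filled symbols are DEGs and a missing symbol is a gene that was not tested. CD79A and CD79B lie between 1.82 and 3.80 wherever they were tested, while EBF1 lies at -1.37 in juveniles and 1.51 in adults.

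MS4A1 had the breed direction of the CD79 chains with a wide spread, and it was high in a library that the chains were not. It had 25, 254 and 108 reads in DPLBJ1 to DPLBJ3 and 11, 89 and 217 reads in MHLBJ1 to MHLBJ3. In adults it had 78, 67 and 25 reads in DPLBA and 25, 17 and 4 reads in MHLBA, in replicate order. The breeds overlapped at both stages, with MHLBJ3 second only to DPLBJ2. The log2 fold change of 0.81 ± 1.01 in juveniles (SE; edgeR, adjusted p = 0.714), 1.58 ± 0.83 in adults (adjusted p = 0.286) and 1.16 ± 0.70 over both stages (adjusted p = 0.27) did not pass. MS4A1 was a DEG in adults with limma on log2(RPKM + 0.1) (1.79), with the replicate block (1.84) and without MHLBA1, and over both stages with the block (1.36), in each with an adjusted p over 0.05. Without MHLBJ3, MS4A1 and RAG1 joined CD79A and CD79B as DEGs over both stages. Per gene length, CD79A and CD79B together had 1.27 RPKM in MHLBJ3 against 8.18 RPKM for MS4A1, a ratio of 0.155, which was the lowest of the 12 long bone libraries. The ratio was 1.08 in DPLBJ2 and had a median of 1.12 over the 6 DP libraries and 0.592 over the 6 MH libraries, with ranges (0.493 to 2.65 and 0.155 to 2.67) that overlapped.

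CD22 and BLNK did not pass the test between breeds at either stage. CD22 had 11 to 46 reads per library in the DP long bone, with a median of 16.5, and 6 to 33 in the MH long bone, with a median of 12.5. Its log2 fold change was 0.39 ± 0.62 in juveniles (SE; edgeR, adjusted p = 0.781), 1.21 ± 0.76 in adults (adjusted p = 0.371) and 0.77 ± 0.51 over both stages (adjusted p = 0.31). BLNK was far more abundant, with 107 to 635 reads in the DP and 118 to 295 in the MH long bone. Its log2 fold change was 0.58 ± 0.39 in juveniles (edgeR, adjusted p = 0.47), 0.28 ± 0.70 in adults (adjusted p = 0.845) and 0.42 ± 0.43 over both stages (adjusted p = 0.521). The highest BLNK value was the 635 reads of DPLBA2, and without that library the adult log2 fold change was -0.77. The deposited RPKM of BLNK in DPLBA2, 21.7, was 62.3% above what its reads give, and in that library the RPKM of 373 of 12054 genes with at least 50 reads was over 2% off, against 0 to 5 genes in each of the other 23 libraries. The other values of the 9 genes with at least 50 reads were within 2%, EBF1 in DPLBA2 included, but sums of RPKM in DPLBA2 carry this uncertainty.

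The transcription factors PAX5 and EBF1 differed in their pattern over the libraries. PAX5, which commits progenitors to the B lineage, had 10, 120 and 14 reads in DPLBJ, 15, 11 and 71 in MHLBJ, 18, 41 and 9 in DPLBA and 12, 14 and 6 in MHLBA, in replicate order. DPLBJ2 and MHLBJ3 were high and the other 10 libraries held 6 to 41 reads, with the breeds overlapping at both stages. Its log2 fold change was 1.05 ± 1.13 in juveniles (SE; edgeR, adjusted p = 0.668) and 0.83 ± 0.71 in adults (adjusted p = 0.511), and the juvenile value was -1.09 without DPLBJ2.

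EBF1 was the most abundant of the 9 genes in the long bone, with a median of 7.36 RPKM over 12 libraries, followed by BLNK with 5.44 and MS4A1 with 1.78. It had 208, 131 and 159 reads in DPLBJ, against 463, 489 and 698 in MHLBJ, in replicate order. In adults it had 217, 2957 and 221 reads in DPLBA and 85, 561 and 425 in MHLBA. Juvenile DPs were below all juvenile MHs, with means of 11.9 ± 4.5 and 30.9 ± 6.9 CPM (SD, n = 3). Adult DPLBA2 held 150.4 CPM and the next highest library, MHLBJ1, 35.1 CPM, while DPLBA1 and DPLBA3 held 13.5 and 12.5 CPM. The adult log2 fold change was 1.51 ± 0.99 (SE; edgeR, adjusted p = 0.389) and -0.65 without DPLBA2. Over both stages it was 0.06 ± 0.78 (edgeR, adjusted p = 0.967), and without DPLBA2 EBF1 became a DEG, lower in DPs, at -1.07. The juvenile call remained when any 1 of the 6 libraries was left out, but not in a fit of all 12 long bone libraries (-1.41).

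Genes of fat cells moved with EBF1 in juveniles: all 6 tested were DEGs and lower in DPs, and their median was -1.59 on the log2 scale. Of all tested genes 13.8% were DEGs, and 0 of the 6 passed after adjustment. Their summed level was 1833 to 4108 RPKM in DPLBJ and 7448 to 9503 RPKM in MHLBJ, without overlap, and 717 RPKM in MHLBA1, the long bone library with the fewest EBF1 reads. In DPLBA2, which had the most EBF1, the fat cell genes summed to 2046 RPKM. Endothelial genes summed to 182 to 267 RPKM in DPLBJ and 445 to 453 RPKM in MHLBJ, also without overlap, and to 102 RPKM in MHLBA1. Of 7 tested in juveniles, 2 were lower and 1 was a higher DEG in DPs. The Pearson correlation of EBF1 with the summed RPKM (log2 scale) was 0.49 for endothelial and 0.43 for fat cell genes. Spearman's rho was 0.62 and 0.63. The part of either cell type in the EBF1 difference was not tested. Over the 12 long bone libraries, on the log2 CPM scale, EBF1 and CD79A had a Pearson correlation of -0.24 (Spearman's rho -0.38), against 0.85 (0.77) for CD79A and CD79B and 0.76 (0.71) for MS4A1 and PAX5. These points share breed, stage and the composition of each tissue piece, and the values are descriptions.

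**Figure D3:**
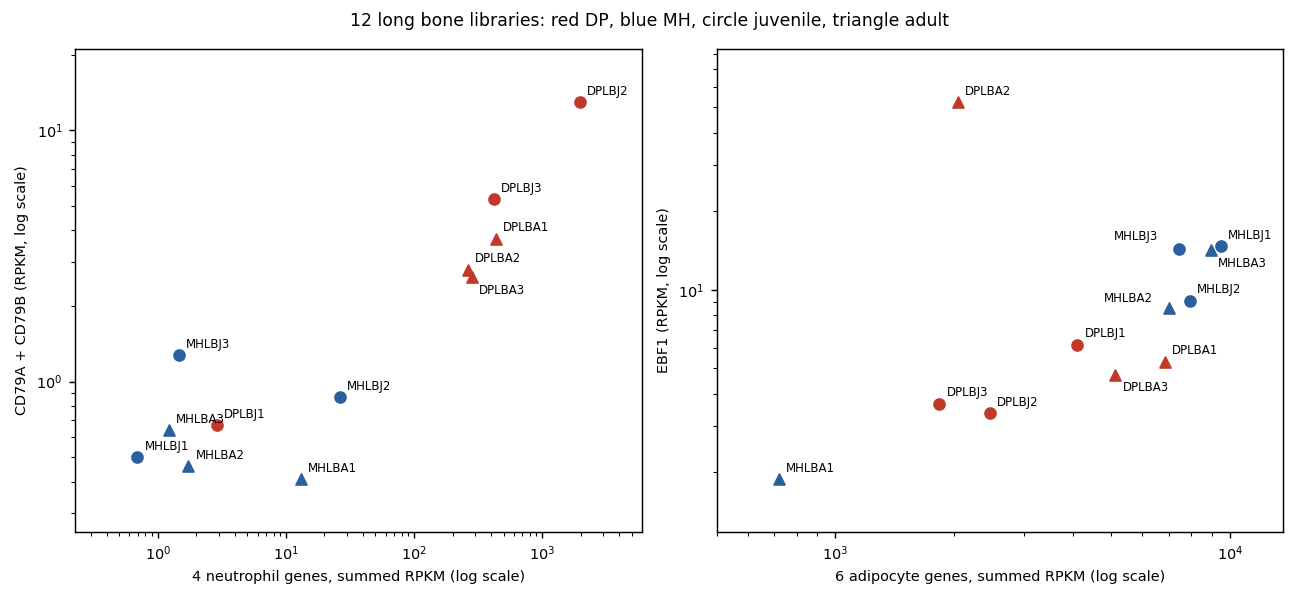
Left, CD79A and CD79B together (RPKM) against 4 neutrophil genes (summed RPKM) in the 12 long bone libraries; right, EBF1 (RPKM) against 6 adipocyte genes (summed RPKM), all on log axes, with DPs red, MHs blue, juveniles as circles and adults as triangles. The 5 DP libraries other than DPLBJ1 lie apart at the upper right of the left panel with 2.60 to 12.9 RPKM of the CD79 chains, DPLBJ1 lies among the MHs, and DPLBA2 stands alone at 52.3 RPKM of EBF1 on the right.

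RAG1 and RAG2, neighbouring genes in the horse, were high in 1 long bone library. RAG1 had 13, 20 and 7 reads in DPLBJ, 7, 3 and 76 in MHLBJ, 4, 14 and 13 in DPLBA and 5, 2 and 1 in MHLBA, in replicate order. RAG2 had 5, 21 and 5 reads in DPLBJ, 0, 0 and 147 in MHLBJ, 1, 5 and 0 in DPLBA and 0, 0 and 4 in MHLBA. MHLBJ3 was the highest for both and DPLBJ2 the second. RAG1 gave a log2 fold change of -0.58 ± 1.12 in juveniles (SE; edgeR, adjusted p = 0.826), which was 1.55 without MHLBJ3, and 0.32 ± 0.82 over both stages (adjusted p = 0.815). In adults without MHLBA1, RAG1 reached the filter through the DP libraries alone and was a DEG, higher in DPs. In that fit 1572 of 14505 tested genes were higher DEGs. RAG2 was not tested in any long bone comparison of breeds, since too few libraries had reads of it.

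The library with the recombinase was not the one with the receptor chains. MHLBJ3 had 223 reads of RAG1 and RAG2 and 20 of CD79A and CD79B, whereas DPLBJ2 had 41 and 168. DNTT, the enzyme that adds bases at the joins of antibody and T cell receptor genes, had 7.51 RPKM in MHLBJ3, 4.96 in DPLBJ2, 2.35 in DPLBJ3 and 8.28 in DPLBA2, and at most 0.45 RPKM in the other 8 long bone libraries. T cell genes were also highest in MHLBJ3, where CD3E had 35.7 RPKM, CD3G 38.5, TCF7 25.8 and CD4 16.2, and 14 genes of T and NK cells summed to 169 RPKM, against 41.9 to 140 in the other 11. The part of T lineage cells in the RAG1 and RAG2 reads was not tested. DPLBA2 had little recombinase beside its DNTT, with 14 reads of RAG1 and 5 of RAG2.

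**Figure D4:**
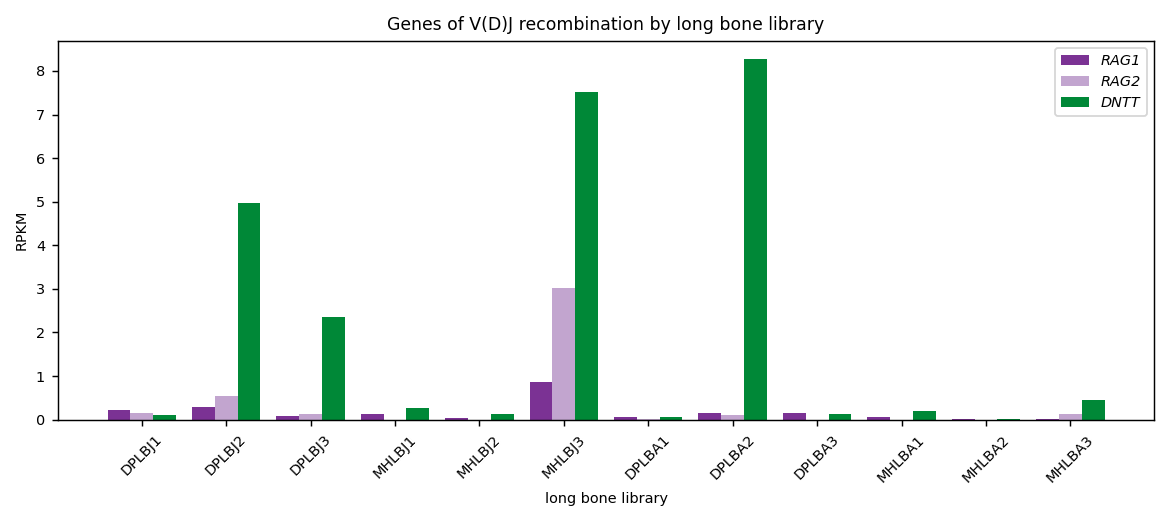
RPKM of RAG1, RAG2 and DNTT as bars in each of the 12 long bone libraries. RAG2 reaches 3.02 RPKM in MHLBJ3 and at most 0.54 elsewhere, while DNTT is above 2 RPKM in DPLBJ2, DPLBJ3, MHLBJ3 and DPLBA2.

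Other genes of the pathway were taken from lists. Of 18 genes of B cell receptor signalling and the B cell surface found in the tables, 15 were tested in the adult long bone and 10 were DEGs, all higher in DPs. After adjustment with edgeR 4 passed: the kinases SYK (log2 fold change 1.95) and BTK (2.50), the phospholipase PLCG2 (1.50) and the lipid kinase subunit PIK3CD (1.71). The median log2 fold change of the 15 genes was 1.48, against -0.03 over all tested genes. Of all tested genes 18.3% were DEGs and 10.3% were higher DEGs in adults. Of 13 B lineage transcription factors other than PAX5 and EBF1, 8 were DEGs and higher, with a median of 1.36, but 0 passed after adjustment. The 8 included MYB (4.27), IRF4 (3.36), LEF1 (1.59) and TCF3 (1.42), the last of which encodes the E proteins that act upstream of EBF1. Several of these genes also serve myeloid or T cells. Of 6 tested genes of V(D)J recombination, 0 were DEGs in edgeR, with DCLRE1C the 1 gene at an unadjusted P under 0.05 (log2 fold change -0.91) and a median of -0.19. Of the 13 genes of that list 8 were found, and they summed to 317 to 570 RPKM in the pituitary and 350 to 1009 RPKM in the long bone. With DNTT, RAG1 and RAG2 not tested in adults, the list could not show whether recombination in lymphoid cells differed.

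In juveniles 3 of 16 tested receptor signalling genes (SYK, BTK and PIK3CD) and 2 of 13 transcription factors (TCF3 and POU2AF1) were higher in DPs, 0 of 7 recombination genes were DEGs in edgeR and 0 had an unadjusted P under 0.05, and no gene of these 3 lists passed after adjustment. The medians were 1.23, 1.07 and 0.14 on the log2 scale, against 0.05 over all tested genes. Of all genes tested in juveniles 8.33% were higher DEGs, and the counts of both lists, though above that share, rest on few genes. Of 9 genes of signals that guide marrow B cell formation, 2 were DEGs in adults, the receptor FLT3 (2.69; edgeR, adjusted p = 0.0292) and the stromal chemokine CXCL12 (1.06; adjusted p = 0.0857), both higher in DPs. Of all genes tested in adults 18.3% were DEGs and 10.3% were higher DEGs, and 2 genes are too few to set apart from these shares. In juveniles the 1 DEG was KIT (-1.98; edgeR, adjusted p = 0.249), the receptor for stem cell factor, lower in DPs.

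**Figure D5:**
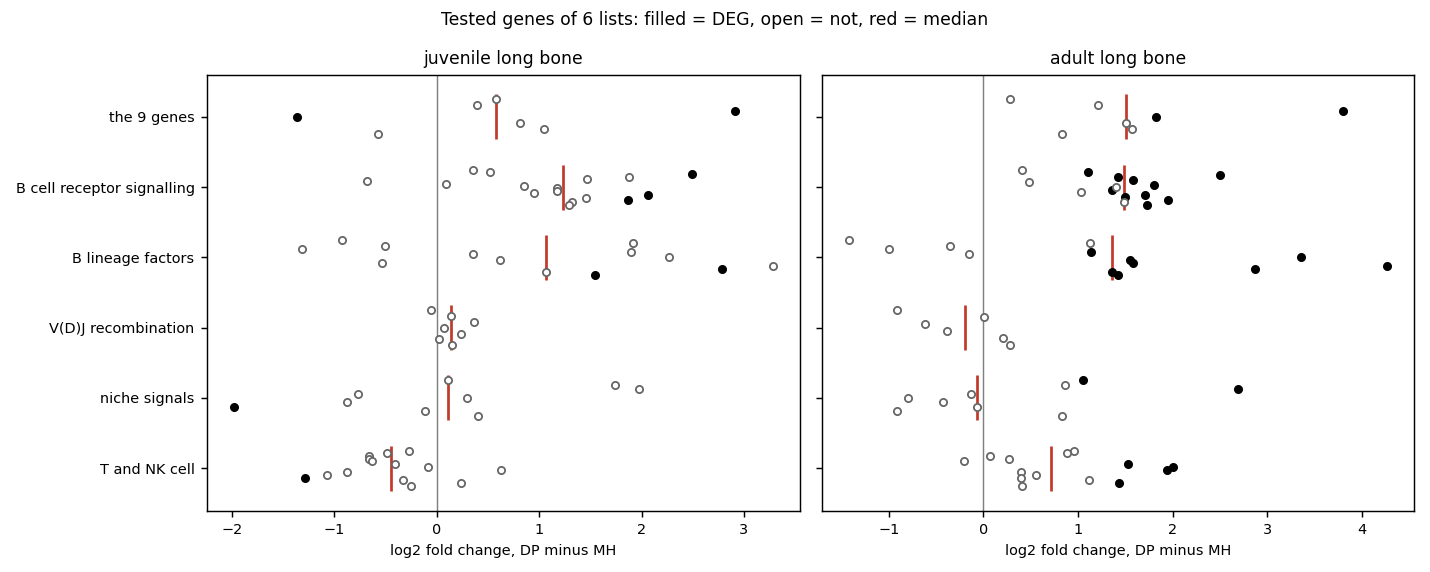
Log2 fold change between DPs and MHs (horizontal axis) of the tested genes in 6 lists, in the juvenile (left) and adult (right) long bone; filled points are DEGs, open points are not, and red lines are medians. In adults the receptor signalling genes have a median of 1.48 and the recombination genes, with RAG1, RAG2 and DNTT not among those tested, one of -0.19.

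Several lists of markers of other cells of the bone piece were also higher in DPs. All 4 neutrophil genes were DEGs and higher in DPs at both stages, and their median was 6.42 in juveniles and 5.45 in adults on the log2 scale. Their summed level was 262 to 434 RPKM in DPLBA against 1.22 to 13.1 in MHLBA, and 2.89 to 1963 in DPLBJ against 0.69 to 26.2 in MHLBJ. Genes of cell division were higher in DPs as well, with 9 of 9 DEGs in juveniles and 7 of 9 in adults. Of all tested genes 8.33% were higher DEGs in juveniles and 10.3% in adults. In juveniles 0 of all tested genes passed after adjustment with edgeR. In adults 1 neutrophil, 1 T and NK cell and 1 megakaryocyte gene passed, and 0 of cell division, erythroid cells or cartilage. Of 14 T and NK cell genes, 4 were DEGs and higher in adult DPs, and 1 (LCK) was a DEG and lower in juvenile DPs. Of 8 tested monocyte and macrophage genes, 5 were higher in adult DPs, 3 of them after adjustment. In juvenile DPs 5 of 5 erythroid and 5 of 5 cartilage genes were higher, and in adult DPs 2 of 2 megakaryocyte genes. In adult DPs 1 of 2 tested erythroid and 2 of 6 tested cartilage genes were higher. Erythroid genes summed to 6755, 3502 and 160 RPKM in DPLBJ2, DPLBJ3 and DPLBA2. In DPLBA1, DPLBA3 and DPLBJ1 they summed to 0.07 to 0.30 RPKM, below the 0.77 to 8.59 RPKM of the MHs. They thus did not follow CD79A in DPLBA1 and DPLBA3. Megakaryocyte genes summed to 12.9 to 43.5 RPKM in the 5 DP libraries with the most CD79A and to 1.80 to 2.64 RPKM in DPLBJ1 and the MHs. Cartilage genes summed to 47.7 to 4296 RPKM in those 5 libraries, 188 RPKM in MHLBA1 and 1.74 to 5.21 RPKM in the other 6. The part of these cells in the difference of CD79A and CD79B was not tested.

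The 10 genes most like the members over the 12 long bone libraries were found by the Pearson correlation with their mean standardized log2 CPM, over the 8 members that passed the filter. They were PRKCB (r = 0.94), IGF2BP3 (0.90), TMEM156 (0.89), BCL11A (0.89), CD1B (0.87), MCF2L2 (0.87), STMN1 (0.84), ST8SIA4 (0.84), MS4A2 (0.83) and METTL18 (0.83), among 14727 genes. PRKCB, a protein kinase C, had 1.35 to 32.8 RPKM in the DP and 1.40 to 10.1 RPKM in the MH long bone, with its highest values in DPLBJ2 (32.8), DPLBA2 (18.2) and MHLBJ3 (10.1). Of these, 7 were also among the first 10 on log2(RPKM + 1), but only 3 with the breed means removed and 2 with Spearman's correlation.

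Against the pituitary, 5 of the 9 genes, all tested here, were DEGs and higher in the long bone, where 37.9% of all tested genes were DEGs and 16.8% were higher DEGs. CD79A, with 0 to 4 reads in every pituitary library, reached the filter only through the long bone. CD22, with 0 to 12 reads per pituitary library, also needed the long bone libraries to reach it. EBF1 had a log2 fold change of 4.14 ± 0.51 (SE; edgeR, adjusted p = 6.22e-07), CD79A of 2.90 ± 0.82 (adjusted p = 0.00446), MS4A1 of 2.48 ± 0.57 (adjusted p = 0.000869), CD79B of 2.08 ± 0.52 (adjusted p = 0.00185) and CD22 of 1.90 ± 0.45 (adjusted p = 0.00122). BLNK also passed after adjustment at 0.80 ± 0.28 (edgeR, adjusted p = 0.0195) but with a fold change under 2, so that 6 of 9 passed by that measure, as did 57.8% of all tested genes. PAX5 (0.01 ± 0.54), RAG1 (0.72 ± 0.60) and RAG2 (0.27 ± 1.10) did not pass. This fit took all libraries as independent, although the paper took both tissues from the same animals. With a block on breed, stage and replicate number the same 5 genes were DEGs, and 5 genes passed after adjustment. Without the 5 libraries that lack hormone genes, the 5 genes remained DEGs at 1.88 to 4.52 and BLNK joined them at 1.18. In that fit 6362 of 16196 tested genes were DEGs and 3367 were higher DEGs. Of the lists, 11 of 17 receptor signalling genes and 8 of 13 transcription factors were DEGs and higher in the long bone, with medians of 1.33 and 1.47 on the log2 scale, whereas 1 of 7 recombination genes (LIG4, -1.21) was a DEG and it was lower. T and NK cell genes were higher in 13 of 14. Without the 5 libraries these counts were 12 of 17, 10 of 13, 1 of 7 and 11 of 14.

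The pituitary libraries held few reads of the receptor chains. CD79A had 0 to 4 reads per pituitary library and CD79B 0 to 16. PAX5 had 8 to 62 reads, with 62 in MHPA2 and 59 in MHPA3, and a mean of 1.60 ± 0.97 CPM (SD, n = 12) in the pituitary and 1.77 ± 2.34 CPM (SD, n = 12) in the long bone. BLNK had 52 to 237 reads there. RAG1 had 33 and RAG2 39 reads in DPPJ2, the highest pituitary value of each, and that library also had the highest RPKM of CD3E among the pituitary libraries (7.34).

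Between breeds in the pituitary, 1 of 5 tested genes was a DEG in juveniles, against 20.3% of all tested genes. MS4A1 was lower in DPs, at -1.83 ± 0.65 on the log2 scale (SE; edgeR, adjusted p = 0.118), with 0.29 to 0.93 CPM in DPPJ and 1.20 to 3.23 CPM in MHPJ. It reached the filter mainly through MHPJ, with 7 to 20 reads per DPPJ library. All 3 MHPJ libraries lack hormone genes, so breed and the make-up of the sample cannot be told apart here. In adults 0 of 3 tested genes were DEGs in edgeR, DESeq2 or limma, 0 had an unadjusted P under 0.05 in edgeR, and 2.93% of all tested genes were DEGs. Without DPPA1 and MHPA1, which lack hormone genes, PAX5 was a DEG and lower in DPs (-1.26 ± 0.41; edgeR, adjusted p = 0.151), as it was without MHPA1 alone (-1.33). DEGs made up 866 of 14394 tested genes without both libraries and 785 of 14778 without MHPA1 alone.

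Between the stages, EBF1 was the 1 DEG among 8 tested genes in the DP long bone, lower in juveniles at -2.28 ± 0.97 on the log2 scale (SE; edgeR, adjusted p = 0.988), against 3.14% of all tested genes. That call was lost without DPLBA2, when the value was -0.10, and also without DPLBJ2 (-2.13) and DPLBJ3 (-2.11). In the MH long bone 0 of 5 tested genes were DEGs in edgeR, against 2.91% of all tested genes, and 0 had an unadjusted P under 0.05, while DESeq2 and limma on either RPKM scale each called MS4A1. In the pituitary 0 of 4 tested genes were DEGs in DPs (3.56% of all tested genes) and 0 of 4 in MHs (7.74%) with edgeR, and 0 had an unadjusted P under 0.05 in either. There DESeq2 called MS4A1 and EBF1 in MHs and 0 genes in DPs, and limma called 0 in both. Without DPPA1 RAG1 was a DEG in DPs, higher in juveniles (2.72 ± 0.88; edgeR, adjusted p = 0.267), where it reached the filter only through DPPJ. Without MHPA1, MS4A1 (2.73 ± 0.75; adjusted p = 0.147) and PAX5 (-1.55 ± 0.54; adjusted p = 0.2) were DEGs in MHs, in a comparison of 3 juvenile libraries that lack hormone genes with 2 adult ones that have them. MS4A1 reached the filter there only through MHPJ. The breed difference in juvenile long bone minus that in adults was past the threshold for EBF1 among 8 tested genes, at -2.93 ± 1.19 (SE; edgeR, adjusted p = 0.971), against 4.17% of all tested genes, and was -0.74 without DPLBA2. The call was also lost without DPLBJ2, DPLBJ3, MHLBA1, MHLBA2, MHLBJ1 or MHLBJ3, each left out alone, at -2.84 to -2.49. For CD79A and CD79B it was -0.66 ± 1.69 (edgeR, adjusted p = 0.995) and 1.05 ± 1.15 (adjusted p = 0.982).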

How the data were processed

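RNA depleted of ribosomal RNA was sequenced with strand-specific libraries from 24 tissue samples. The authors deposited a table of raw counts per gene and a table of RPKM per gene. TopHat2, bcl2fastq and edgeR are named in the submitters' processing notes, and their versions and whether counting used strand are not given in the sources used here. The deposited counts were scaled by TMM, filtered with filterByExpr (minimum count 10) and tested with edgeR 4.0.16 (quasi-likelihood, R 4.3.3), with Benjamini-Hochberg adjustment over all tested genes. CPM was computed here from the deposited counts, and RPKM was used only for levels, sums and 2 limma fits. A DEG had P under 0.05 before adjustment and more than 2-fold change. Each breed comparison within a tissue and stage, and each stage comparison within a tissue and breed, used its own 6 libraries. The long bone of both stages used 12 and the tissue comparison 24. By the paper's methods those 24 libraries come from 12 animals, and the main tissue fit took them as independent.

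The members and gene lists were chosen with earlier results of these data known. Every member was named for the juvenile and the adult long bone between breeds and for the comparison of tissues. In the other comparisons not every member was named. List genes were named from those that were DEGs or had the lowest P. All 9 members matched by symbol in RefSeq, which was used only for which genes are neighbours. Alternatives were DESeq2 1.42.0, its size factors, limma 3.58.1 on log2(RPKM + 1) and log2(RPKM + 0.1), no low-count filter, all libraries of a tissue in 1 fit, a replicate block and leaving out each library. Leaving out the 5 libraries without hormone genes (between tissues) or the 2 of them among adults (adult pituitary) was chosen after seeing the data. Same-numbered libraries deviated together (every correlation over 0.1) in 1 of 12 pairs of groups, adult DP and MH pituitary. No libraries of the same group were duplicates by a chi-square check of their counts, and pairs from different groups were not checked. The scripts were tested on simulated data. Columns of no sample numbered 0. Intervals and limits for 0 reads cover counting error only.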

Additional observations from a re-analysis of the deposited data

Results flagged for a closer look

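EBF1 was the 1 member whose breed difference in the long bone differed between the stages by the interaction term: -2.93 on the log2 scale for juveniles minus adults (edgeR, adjusted p = 0.971 over all tested genes). All 3 juvenile DPs were below all 3 juvenile MHs, and the adult groups overlapped. The term rested largely on DPLBA2, without which it was -0.74.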

How the results depend on the processing

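Counts of members that were DEGs moved by over 1.5 times as follows. With limma on log2(RPKM + 1) they were 1 in the juvenile and 1 in the adult long bone between breeds, 0 in the juvenile pituitary, 0 between DP and 1 between MH long bone stages, 2 between tissues and 0 for the interaction. On log2(RPKM + 0.1) they were 0 between DP and 1 between MH long bone stages and 0 for the interaction. Over all tested genes limma on log2(RPKM + 1) called 1293 of 13755 in the juvenile and 1668 of 14073 in the adult long bone. At an adjusted p under 0.05 in edgeR the member counts were 0 in the juvenile long bone, the adult long bone, the juvenile pituitary, the DP long bone stages and the interaction, while DESeq2 passed 2 members in the juvenile long bone, 1 in the adult long bone and 1 between juvenile pituitaries, and limma 1 in the adult long bone on either scale. Of all tested genes DESeq2 passed 1289 of 13755 in the juvenile long bone, 1835 of 14073 in the adult long bone and 4232 of 14603 between juvenile pituitaries. There edgeR passed 0, 315 and 1562. In the adult long bone limma passed 427 on log2(RPKM + 1) and 373 on log2(RPKM + 0.1). With the replicate block the member counts were 0 in the juvenile pituitary, the DP long bone stages and the interaction. The block also gave 0 in the adult pituitary, where same-numbered libraries deviated together. Those libraries are of different animals, and both with number 1, DPPA1 and MHPA1, lack hormone genes. In the other pairs of groups the correlations were not all over 0.1. With no low-count filter they were 1 in the adult pituitary, 2 and 1 between DP and MH long bone stages and 1 between DP pituitary stages. DESeq2 gave 0 and 1 for DP and MH long bone stages and 2 for MH pituitary stages. With all 12 libraries of a tissue in 1 fit they were 2 for MH long bone stages, 1 for DP and 2 for MH pituitary stages. Without the libraries lacking hormone genes the adult pituitary count was 1, in a fit with 866 DEGs among 14394 tested genes.

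Log2 fold changes that turned were RAG1 in the juvenile long bone (0.39 with the block), EBF1 over both stages (-0.31 and -0.35 with limma at pseudocounts of 1 and 0.1, -0.50 with the block), RAG1 over both stages (-0.00225 with limma at 1), PAX5 between tissues (-0.12, -0.37, -0.28 with the block and -0.26 without the libraries lacking hormone genes) and RAG2 between tissues (-0.00785 with limma at 0.1, -0.44 with the block and -0.51 without those libraries). The cause was not tested.

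With each library left out in turn, the counts ran from 1 to 3 in the juvenile and 1 to 4 in the adult long bone, 2 to 4 over both stages, 0 to 2 in the juvenile and 0 to 1 in the adult pituitary, 0 to 3 and 0 to 2 between DP and MH long bone stages, 0 to 2 between DP and 0 to 2 between MH pituitary stages, 5 to 5 between tissues and 0 to 1 for the interaction. The DEGs among all tested genes moved too, from 1194 of 13984 to 3087 of 14397 in the juvenile long bone. They ran from 1924 of 14511 to 2956 of 14497 in the adult long bone. In the pituitary they ran from 2153 of 15011 to 4505 of 15071 in juveniles and from 415 of 14610 to 785 of 14778 in adults. Log2 fold changes that turned ran from -0.77 to 0.95 (BLNK, adult), -0.65 to 2.01 (EBF1, adult), -0.12 to 0.67 (CD22, juvenile), -0.35 to 1.84 (MS4A1, juvenile), -1.09 to 2.08 (PAX5, juvenile), -1.17 to 1.55 (RAG1, juvenile), -0.016 to 0.73 (BLNK, both stages), -1.07 to 0.39 (EBF1, both stages), -0.50 to 0.18 (PAX5, tissues) and -1.14 to 0.79 (RAG2, tissues). CD79A and CD79B were higher in DPs over both stages in every one of these fits. Few reads limit CD79A, RAG1 and RAG2 most, and 3 libraries a group limit all members.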

Other observations

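MZB1, a gene of antibody-secreting cells, had a log2 fold change of 4.98 in the adult long bone (edgeR, a DEG, but not after adjustment). It had 0 to 36.6 RPKM in the DP and 0.07 to 3.36 RPKM in the MH long bone. DPLBJ1 had 0 and DPLBA2 1.94 RPKM. Of 5 tested genes of plasma cells and germinal centres, 2 were higher DEGs in adult DPs, against 10.3% of all tested genes. In juveniles 0 of 5 were higher and 1 was lower. The list summed to 163 to 209 RPKM in DPLBA and 166 to 295 RPKM in MHLBA. PRKCB, the gene most like the members in the long bone, had its highest level of all 24 libraries, 45.4 RPKM, in MHPJ3, where CD79A and CD79B together had 5 reads.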
